A study of Mus musculus with 6 samples.

Results

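Of 20810 chromatin regions that were called accessible in all 6 ATAC-seq libraries of this study, 970 ranked higher in every tunicamycin library than in any DMSO library. The regions were made by merging peaks of the 6 lists on chromosomes 1 to 19, X and Y that overlapped by at least 1 bp, which gave 82993 union regions. Within each library a shared region took the highest fold enrichment of its peaks, and this value was turned into a percentile from 0 to 100 among the 20810. A region belonged to the set if its lowest tunicamycin percentile lay above its highest DMSO percentile, and the distance between these 2 percentiles is called the gap. The set was thus selected on the fold enrichment of all 6 libraries, and its difference between treatments is given as a description with no test.

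ATAC-seq uses a transposase to insert sequencing adapters into open DNA. The cells were haematopoietic stem cells (HSCs) of the CD48-CD150+LSK surface phenotype, sorted from bone marrow of wild-type C57BL/6J mice, with about 5000 cells in a library. The groups of 3 libraries each came from mice given tunicamycin by intraperitoneal injection at 2 mg per kg (tunicamycin 1 to 3) and from mice given DMSO by the same route (DMSO 1 to 3). The sources used here give neither the time between injection and sorting nor the animals behind each library, so the spread between libraries may be technical. Tunicamycin blocks the first step of N-linked glycosylation, so that unfolded glycoproteins build up in the endoplasmic reticulum (ER). The ER sensors PERK, IRE1 and ATF6 then start the unfolded protein response, and PERK feeds the integrated stress response, in which phosphorylated eIF2alpha favours translation of ATF4 and, downstream, expression of CHOP and their targets. Peaks mark DNA free of nucleosomes, such as active promoters and enhancers. In a bulk library, more cells with an open region and a more open region in each cell cannot be told apart.

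The libraries were uneven. They held 44952, 56865 and 47789 peaks in the tunicamycin group and 62478, 38217 and 28501 peaks in the DMSO group, and read depth is not known from peak lists. Spearman correlations of fold enrichment over the shared regions were 0.849 to 0.862 between tunicamycin libraries and 0.665 to 0.780 between DMSO libraries. DMSO 1 correlated at 0.822 to 0.842 with the tunicamycin libraries, above its values with DMSO 2 (0.780) and DMSO 3 (0.665). These are descriptions over regions that share libraries. Of 10 HSC marker genes 8 had a shared region within 10 kb, including Hlf, Mecom, Procr and Fgd5. Among myeloid markers 2 of 8 had such a region, and the granule genes Elane, Mpo, Ctsg and Camp had none. Erythroid markers had 2 of 6, lymphoid markers 3 of 6, stroma and endothelium 3 of 5, and megakaryocyte markers 5 of 5.

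The promoters of 4 members are shown to give the letters at the start sites that are discussed in the results: Chac1 and Efnb1, which had the widest gaps among members over a RefSeq start site, Psme4, a proteasome gene, and Creb5. The Creb5 window was the only member window with a match to TGATGNAAT, the letters searched here for the CHOP and ATF4 element. The 4 promoters were chosen after their values were seen. Each window runs from 250 bases before to 50 bases after the start site (RefSeq, GRCm38.p6, the assembly that mm10 denotes). Capitals mark matches, on either strand, to CCAAT (the NFY box), TGATGNAAT (searched for the CHOP and ATF4 element), TGANGCAA (a core shared by ATF and C/EBP composite elements), TGACGTCA (CRE), TGACGTGG (UPRE) and TGAGTCA (AP-1). Chac1 lies at chr2:119350992-119351291 on the plus strand, Efnb1 at chrX:99135811-99136110 on the plus strand, Psme4 at chr11:30771525-30771824 on the plus strand and Creb5 at chr6:53573124-53573423 on the plus strand.
Chac1: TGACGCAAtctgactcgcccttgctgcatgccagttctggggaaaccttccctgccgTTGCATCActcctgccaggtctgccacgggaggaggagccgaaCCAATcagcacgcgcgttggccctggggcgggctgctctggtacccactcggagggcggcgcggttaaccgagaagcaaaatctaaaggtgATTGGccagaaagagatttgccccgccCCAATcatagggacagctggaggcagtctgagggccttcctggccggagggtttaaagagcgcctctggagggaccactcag
Efnb1: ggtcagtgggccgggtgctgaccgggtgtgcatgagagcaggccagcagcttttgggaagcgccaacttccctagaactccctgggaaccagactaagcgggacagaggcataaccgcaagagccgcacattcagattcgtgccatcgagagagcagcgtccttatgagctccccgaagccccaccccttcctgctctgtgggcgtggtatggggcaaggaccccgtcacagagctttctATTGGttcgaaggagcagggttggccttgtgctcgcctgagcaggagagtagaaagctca
Psme4: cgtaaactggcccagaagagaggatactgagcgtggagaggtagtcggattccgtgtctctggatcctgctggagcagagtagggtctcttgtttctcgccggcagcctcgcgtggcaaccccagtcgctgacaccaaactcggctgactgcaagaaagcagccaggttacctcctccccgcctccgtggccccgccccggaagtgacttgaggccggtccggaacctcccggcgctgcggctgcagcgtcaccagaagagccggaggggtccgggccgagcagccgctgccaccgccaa
Creb5: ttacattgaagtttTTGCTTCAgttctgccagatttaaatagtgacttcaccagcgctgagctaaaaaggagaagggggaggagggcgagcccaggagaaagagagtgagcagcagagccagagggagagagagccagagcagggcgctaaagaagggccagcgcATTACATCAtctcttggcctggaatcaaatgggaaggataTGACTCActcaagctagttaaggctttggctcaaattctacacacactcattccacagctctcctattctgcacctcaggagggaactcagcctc

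Positions are those of the first letter as printed. The Chac1 window held the TGANGCAA core at 250 and 193 bases before the start site, and CCAAT boxes at 150, 59 and 32 bases before it. It held no match to TGATGNAAT, the letters searched for the CHOP and ATF4 element, or to CRE, UPRE or AP-1. Other spellings of the CHOP and ATF4 element did not count as matches to it. In Efnb1 the single marked match was a CCAAT box 10 bases before the start site, and the Psme4 window had no match to any of the 6 motifs. Creb5, which encodes a bZIP factor of the CREB and ATF family, had TGATGNAAT 85 bases, AP-1 45 bases and the TGANGCAA core 236 bases before its start site. A match is a string of letters and not a site of binding.

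The members were 4.66% of the shared regions. Regions that ranked lower in every tunicamycin library than in any DMSO library numbered 946, or 4.55%. Applied to each of the 20 possible sets of 3 libraries, the same rule chose 752 to 1963 regions, with a mean of 1039.75 and a median of 934. The count of 970 for the 3 tunicamycin libraries stood eighth, level with the mixed set of tunicamycin 2, DMSO 1 and DMSO 2. The most regions, 1963, came from tunicamycin 1 with DMSO 2 and DMSO 3, followed by 1473 for tunicamycin 3 with the same DMSO libraries and 1350 for tunicamycin 2 and tunicamycin 3 with DMSO 1. A wider gap did not set the tunicamycin libraries further forward: 130 members had a gap above 10 percentile points, against a mean of 137 and a highest count of 293 over the 20 sets, and 19 had a gap above 20, against a mean of 19.05 and a highest count of 62. Thus 7 mixed sets, in which both treatments stood together, gave more regions than the 3 tunicamycin libraries did.

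**Figure D1:**
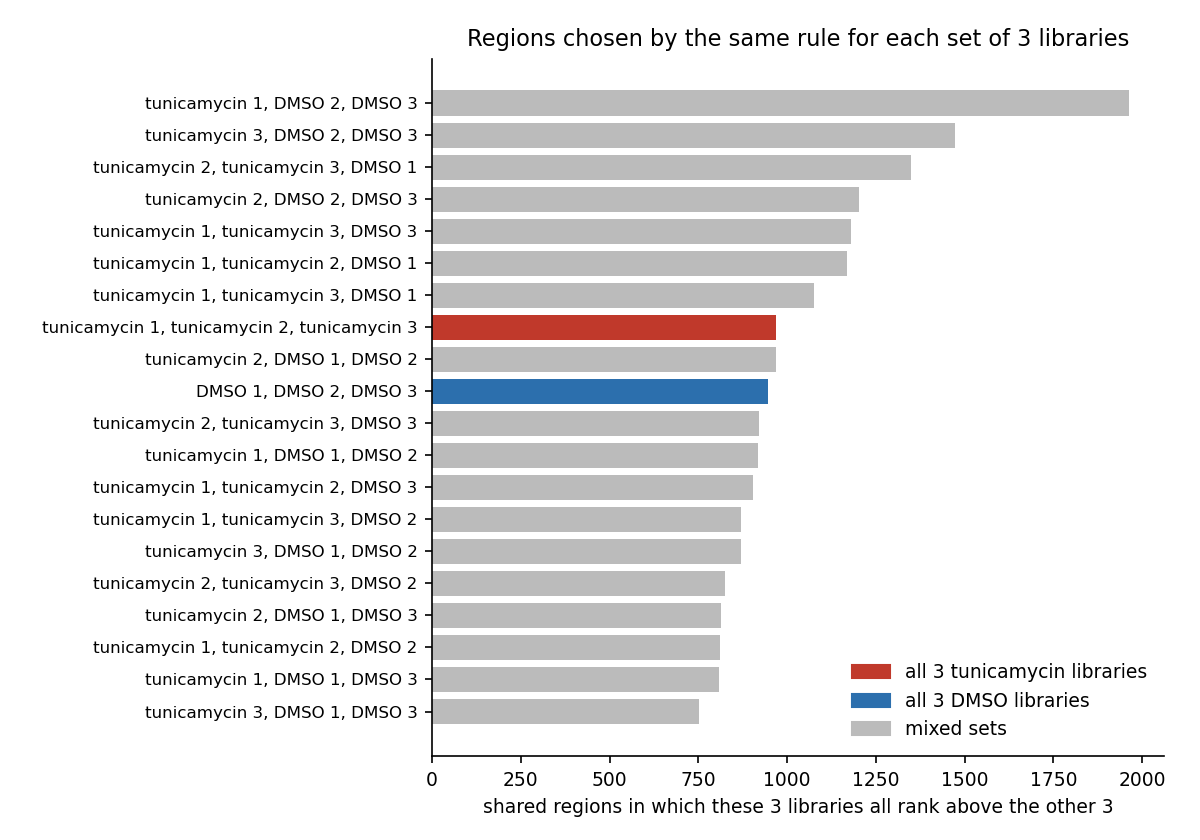
Number of shared regions (horizontal axis) in which the 3 libraries named on the vertical axis all rank above the other 3, for the 20 sets of 3 libraries. The bar of the 3 tunicamycin libraries (970) lies close to that of the 3 DMSO libraries (946), and 7 mixed sets have longer bars, up to 1963.

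In libraries that had no part in the choice, the share of chosen regions that ranked higher after tunicamycin varied with the DMSO library left out. Regions were chosen by the rule on 2 tunicamycin and 2 DMSO libraries, and the left-out tunicamycin library was compared with the left-out DMSO library, for all 9 such pairs. The left-out tunicamycin library ranked higher in 42.7 to 52.7% of the chosen regions, against 47.2 to 53.7% of all shared regions. With DMSO 2 left out, the shares were 52.5 to 52.7% of chosen regions, against 47.8 to 48.6% of all. With DMSO 1 left out they were lower than the background, at 42.7 to 47.4% of chosen regions against 52.7 to 53.7% of all. With DMSO 3 left out they were 45.9 to 49.9% of chosen regions against 47.2 to 47.7% of all. The median difference between the left-out libraries over chosen regions ran from -2.18 to 0.74 percentile points. The 9 pairs reuse the same 6 libraries, and the left-out libraries still took part in defining which regions were shared.

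**Figure D2:**
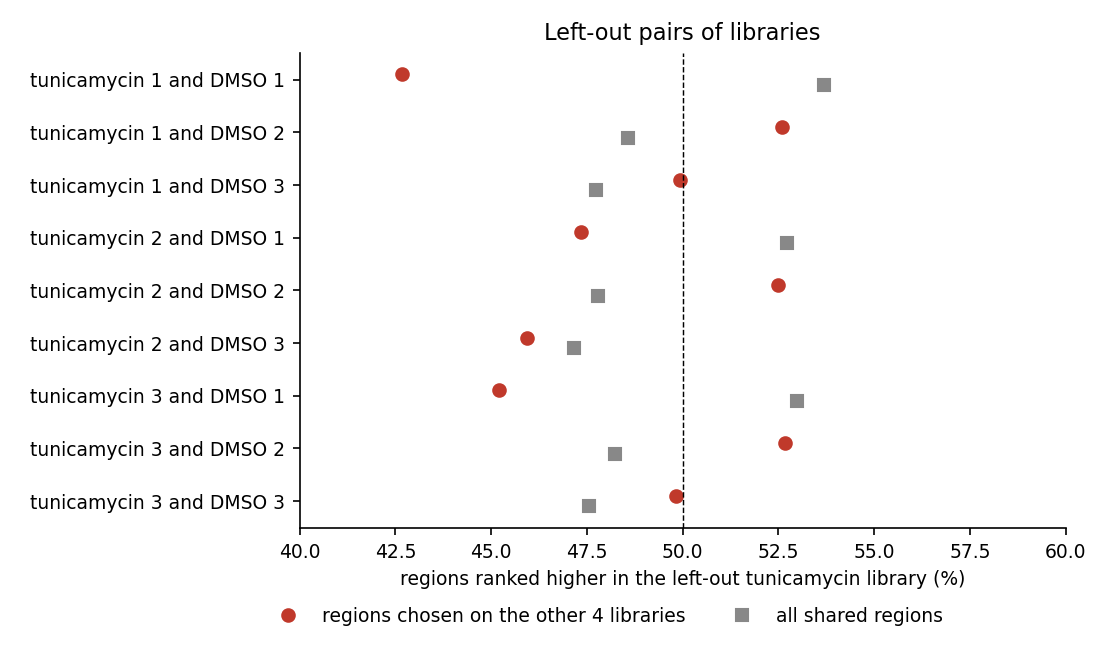
Share of regions that rank higher in the left-out tunicamycin library than in the left-out DMSO library (horizontal axis, from 40 to 60%) for each of the 9 pairs (vertical axis); circles are regions chosen on the other 4 libraries, squares all shared regions, and the dashed line is 50%. Circles lie between 42.7 and 52.7%, and they fall to the left of the squares in the 3 pairs with DMSO 1 and in the pair of tunicamycin 2 and DMSO 3.

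Most members had a narrow gap. The median gap was 3.50 percentile points, with quartiles of 1.36 and 6.79 and a highest value of 48.0, and 196 members (20.2%) had a gap below 1 point. Median percentiles of the members were 61.6, 63.6 and 62.9 in the tunicamycin libraries and 42.5, 38.8 and 36.7 in the DMSO libraries. The mean tunicamycin percentile exceeded the mean DMSO percentile by a median of 16.1 points over members, against -0.30 over all shared regions. The lowest value came most often from the library with the fewest peaks: DMSO 3 was lowest in 408 members, DMSO 2 in 295 and DMSO 1 in 267. The part of library size in membership was not tested. DMSO 1 was the highest of the DMSO libraries in 394 members, and no tunicamycin library led, with 325, 316 and 329 members highest in tunicamycin 1, 2 and 3. Members spanned the whole range of accessibility. They were 7.67% of the shared regions with a mean DMSO percentile below 25 (336 of 4383) and 3.77 to 3.99% in each of the 3 higher ranges of 25 points. The rule itself uses the DMSO percentiles, so these shares describe the choice and are no independent trait of the members. In 97 members a DMSO percentile lay above 90, and in 41 every percentile lay below 20.

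The 12 members with the widest gap lay at genes of many kinds. The widest, 48.0 points, was a 549 bp region inside Gnat3 (chr5:18013048-18013596), which encodes gustducin, the G protein alpha subunit of taste cells. Its percentiles were 71.7, 74.1 and 76.3 in the tunicamycin libraries and 19.8, 23.7 and 13.2 in the DMSO libraries, from fold enrichments of 9.2, 10.2 and 10.0 after tunicamycin and 6.7, 5.3 and 4.2 after DMSO. It was the only shared region of its gene, and the libraries of each group lay close together. A region inside Ppp2cb (chr8:33608363-33608863), the gene of a catalytic subunit of protein phosphatase 2A, stood at 68.8, 50.5 and 55.8 in the tunicamycin libraries and 9.1, 9.0 and 12.5 in the DMSO libraries. The second shared region of that gene was not a member. A region 23.8 kb outside Kdm7a, a histone demethylase gene, ranked 71.6, 66.9 and 66.0 in the tunicamycin libraries and 26.9, 31.1 and 32.1 in the DMSO libraries, with little spread in either group.

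At Kcnk3, a potassium channel gene, the tunicamycin percentiles were 40.3, 37.6 and 52.8 and the DMSO percentiles 6.0, 0.99 and 6.6. A region 30.2 kb from Tomm7, whose product belongs to the import complex of the outer mitochondrial membrane, ranked 68.0, 67.8 and 92.3 after tunicamycin and 22.3, 19.1 and 37.0 after DMSO. Tunicamycin 3 and DMSO 3 were the high libraries of their groups there. Elovl6, a fatty acid elongase gene, had a member 43.2 kb away at 70.5, 65.6 and 86.5 in the tunicamycin libraries and 35.8, 13.6 and 38.7 in the DMSO libraries. Its other 5 shared regions were not members, and their mean differences ran in both directions, from 27.3 to -19.6 points.

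A region 3.9 kb from Ccr9 (chr9:123762861-123763316), which encodes a chemokine receptor of lymphoid cells, ranked 55.3, 46.4 and 47.9 in the tunicamycin libraries and 19.6, 8.5 and 17.5 in the DMSO libraries. The remaining wide gaps were at Mc2r (the corticotropin receptor, 115.3 kb away, gap 30.5), Astn2 (gap 26.2), Ica1l (25.6), Dync1li2 (a dynein light intermediate chain, 25.4) and Gabbr2 (a GABA receptor subunit, 23.3). The Astn2 region ranked 79.7, 89.99 and 83.6 in the tunicamycin libraries and 53.5, 53.1 and 13.2 in the DMSO libraries, where DMSO 3 alone was low.

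**Figure D3:**
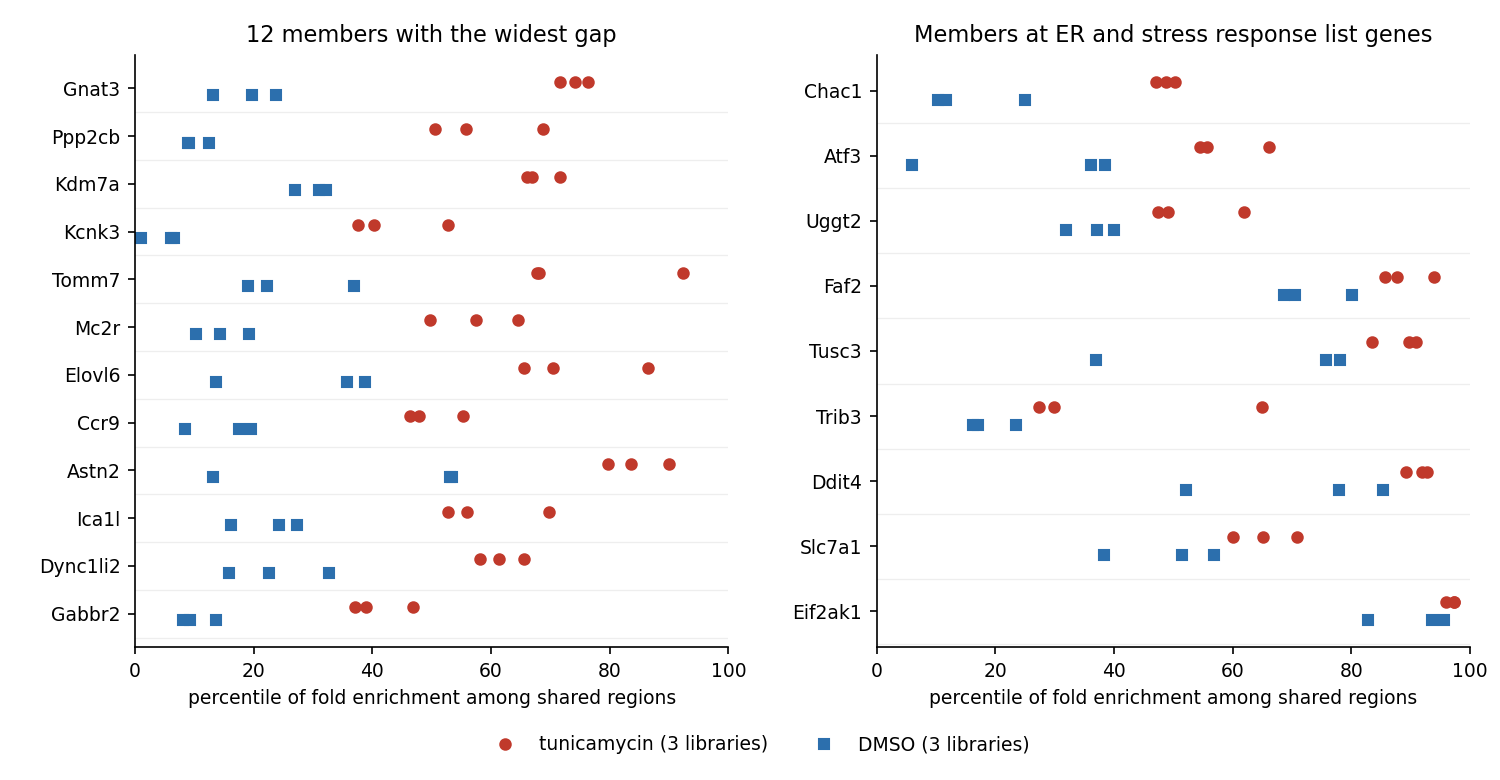
Percentile of fold enrichment among the shared regions (horizontal axis, 0 to 100) in each library, tunicamycin as circles and DMSO as squares. The left panel shows the 12 members with the widest gap and the right panel the members at genes of the integrated stress response, N-glycosylation and ER-associated degradation lists; by the rule no groups overlap, and Chac1 has the widest gap on the right at 22.1.

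The members of highest rank had gaps below 1 point. At Cdk8, the kinase of the Mediator complex, the percentiles were 99.97, 99.97 and 99.97 in the tunicamycin libraries and 99.95, 99.94 and 99.94 in the DMSO libraries. Gtpbp4, a ribosome biogenesis gene, Zc3h7a, Prpf8, a core splicing factor gene, and Usp9x, a deubiquitinase gene, likewise had gaps of 0.024 to 0.22. For Rimbp3 (gap 0.019) DMSO 3 stood apart at 88.1, beside 98.4 to 99.9 in the other DMSO libraries. At the threshold, Specc1l, Fli1 and Cish were the members just inside, with gaps of 0.0024 to 0.0096, and regions at Chl1, Cldn34d and Sfi1 were just outside with tied ranks.

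Among gene lists, the integrated stress response held 6 members in 51 shared regions (11.8%), against 4.62% of all shared regions within 100 kb of a protein-coding gene. The list as a whole did not rank higher after tunicamycin: its median difference was -2.98 points, against -0.35 over all such regions, and the tunicamycin mean was higher in 18 of 51 regions (35.3%), against 48.2%. The single region of Chac1, which encodes a glutathione-degrading enzyme induced by ATF4 and CHOP, covered the start site (chr2:119350909-119351403). Its percentiles were 48.8, 47.1 and 50.3 in the tunicamycin libraries and 24.9, 10.3 and 11.8 in the DMSO libraries, a difference of mean percentiles of 33.0 points. DMSO 1 was the nearest to the tunicamycin group, and on the scale of fold enrichment, where libraries differ in level, the region had 7.4, 8.0 and 7.9 after tunicamycin and 7.1, 4.5 and 4.2 after DMSO.

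Atf3, a stress-induced bZIP factor gene, had a member 17.8 kb outside its body at 66.1, 54.6 and 55.7 in the tunicamycin libraries and 38.5, 6.0 and 36.1 in the DMSO libraries. DMSO 2 was low there. The region over an end of Atf3 ranked 13.8, 21.0 and 18.2 after tunicamycin and 15.2, 15.2 and 35.7 after DMSO, so the groups overlapped, and a region 40.7 kb away was lower in all 3 tunicamycin libraries. At Trib3, a pseudokinase gene downstream of ATF4 and CHOP, a region 5.6 kb away stood at 65.0, 29.9 and 27.3 in the tunicamycin libraries and 23.5, 17 and 16.3 in the DMSO libraries, with tunicamycin 1 far above the other libraries. The region over an end of Trib3 was not a member, at 62.5, 79.2 and 45.7 after tunicamycin and 50.8, 46.1 and 63.9 after DMSO. Ddit4, an mTORC1 inhibitor gene, Slc7a1, a cationic amino acid transporter gene, and Eif2ak1, which encodes the haem-regulated eIF2alpha kinase, had members with gaps of 3.73, 3.20 and 0.30. For Ddit4 the percentiles were 92.8, 89.1 and 91.98 in the tunicamycin libraries and 78.0, 85.4 and 52.1 in the DMSO libraries. The regions at Atf4 itself (mean 72.2 after tunicamycin, 83.5 after DMSO) and Asns (49.0 after tunicamycin, 49.8 after DMSO) were not members.

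**Figure D4:**
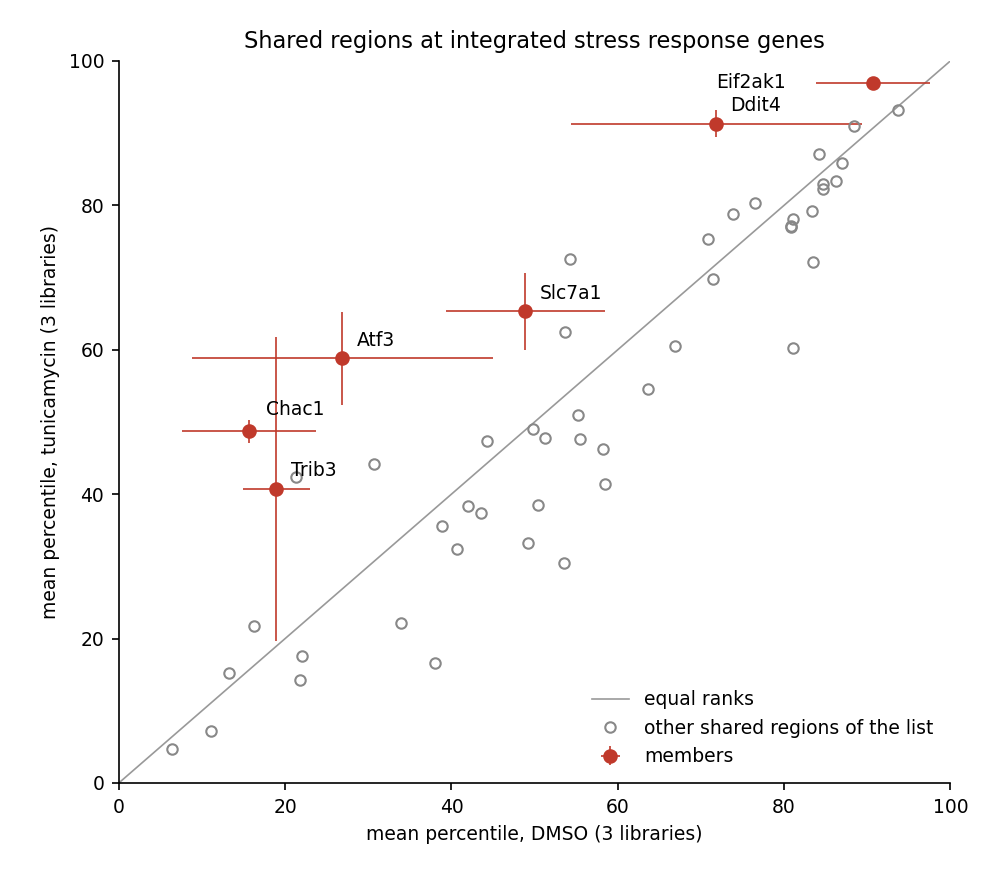
Mean percentile in the tunicamycin libraries (vertical axis) against that in the DMSO libraries (horizontal axis) for the 51 shared regions of the integrated stress response list; bars on the 6 members are SDs over 3 libraries, and the line marks equal ranks. The 6 members lie above the line, while 33 of the other 45 regions lie below it.

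None of the 42 shared regions at 26 genes of the ER stress and unfolded protein response list was a member, against 4.62% of all shared regions within 100 kb of a gene. None ranked lower in every tunicamycin library, against 4.55%. In so short a list a count of none lies near these shares. Over this list the median difference was -1.11 points. The region at Hspa5, the gene of the main ER chaperone, ranked 88.7, 77.2 and 81.0 after tunicamycin and 78.7, 94.4 and 96.8 after DMSO. Xbp1, which encodes the factor spliced by IRE1, had its gene region at 71.3, 63.6 and 79.1 after tunicamycin and 77.8, 87.3 and 85.6 after DMSO. Both genes were picked after their values were seen, and in both the groups overlapped. The lists of ER-associated degradation and N-glycosylation held 1 member in 30 regions (3.33%) and 2 in 51 (3.92%), near the 4.62% of all such regions. These were Faf2, an adaptor that brings the p97 segregase to the ER (85.7, 93.9 and 87.7 after tunicamycin, 70.5, 80.0 and 68.7 after DMSO), Uggt2, of the glycoprotein folding sensor family (62.0, 47.5 and 49.1 after tunicamycin, 31.9, 39.95 and 37.2 after DMSO), and Tusc3, a subunit of the oligosaccharyltransferase (83.5, 89.8 and 90.8 after tunicamycin, 78.1, 75.7 and 36.9 after DMSO). In Tusc3 DMSO 3 lay far below the other DMSO libraries.

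The HSC identity list had 11 members in 115 regions (9.57%, against 4.62% of all shared regions within 100 kb of a gene), and 8 of its regions (6.96%, against 4.55%) ranked lower in every tunicamycin library. Its median difference was -1.27 points, against -0.35 over all such regions, and the tunicamycin mean was higher in 53 of 115 regions (46.1%, against 48.2%). The members lay at Gfi1, Slamf1, Runx1, Procr, Foxo1, Meis1, Lmo2, Cd34 and Fli1, with 2 regions each at Foxo1 and Meis1. Inside Gfi1, which encodes a repressor that restrains HSC cycling, the percentiles were 46.1, 53.3 and 46.0 in the tunicamycin libraries and 29.8, 32.6 and 25.9 in the DMSO libraries. The region over an end of Gfi1 was low in both groups, at 19.8, 12.4 and 7.7 after tunicamycin and 8.9, 15.7 and 35.8 after DMSO. A region 14.5 kb from Slamf1, the gene of the sort marker CD150, stood at 63.4, 74.8 and 60.6 after tunicamycin and 49.5, 44.7 and 38.7 after DMSO. At Procr, the endothelial protein C receptor of HSCs, a region 7.5 kb away ranked 75.4, 68.2 and 56.2 after tunicamycin and 38.6, 44.4 and 47.4 after DMSO, whereas the region at the gene end had means of 25.5 after tunicamycin and 29.5 after DMSO. Runx1, a master regulator of blood formation, had a region inside its body at 71.1, 65.7 and 66.6 after tunicamycin and 50.1, 52.8 and 56.5 after DMSO. The gap of this region, 9.15, was narrower than that of Gfi1 at 13.4 or Slamf1 at 11.1. A second Runx1 member lay 202.3 kb away, too far to count in the list, and had a gap of 15.1. It ranked 57.6, 75.6 and 58.4 after tunicamycin and 42.4, 41.3 and 39.5 after DMSO. Runx1 had 10 shared regions, and mean differences of those that were not members ran in both directions, from -19.2 to 7.95 points.

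Nutrient sensing genes held 6 members in 67 regions (8.96%, against 4.62%), while the tunicamycin mean was higher in 33 of the 67 and the median difference was -0.067 points. They were Rragc, a Rag GTPase gene that recruits mTORC1 to lysosomes, Rptor, the gene of the mTORC1 scaffold, Deptor and Ddit4, both inhibitors, and 2 regions at Foxo1. The Ddit4 region also counted in the integrated stress response list, and the Foxo1 regions in the HSC identity list. In all, 16 genes were in more than 1 list, so the lists are not separate observations. The Rragc region ranked 62.2, 63.6 and 57.2 after tunicamycin and 46.4, 19.8 and 22.4 after DMSO. The autophagy list held 3 members in 46 regions (6.52%, against 4.62%). Among them Atg5, needed for phagophore growth, had a region 16.1 kb away. It ranked 78.1, 83.2 and 76.3 after tunicamycin and 33.7, 43.3 and 57.9 after DMSO. Lamp2, the gene of a lysosomal membrane protein, had a member 16.9 kb outside its body. This region ranked 69.7, 71.5 and 75.2 after tunicamycin and 66.1, 29.0 and 8.0 after DMSO. DMSO 1 lay near the tunicamycin libraries there and far above the other DMSO libraries. The region over an end of Lamp2 was not a member, at 92.7, 85.0 and 72.0 after tunicamycin and 82.3, 75.3 and 54.9 after DMSO.

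Chromatin regulators held 6 members in 83 regions (7.23%, against 4.62%), of which 3 were at Arid1b, a BAF complex subunit gene with 14 shared regions, and the others at Eed, Chd7 and Tet2. The widest gap at Arid1b was in a region at 34.7, 52.4 and 53.8 after tunicamycin and 23.7, 16.7 and 21.4 after DMSO. No other gene had 3 members except Cdyl2, a chromodomain gene, where 3 of 4 shared regions belonged to the set. The most accessible of these ranked 88.8, 85.7 and 65.2 after tunicamycin and 56.1, 46.7 and 38.7 after DMSO, and the other members had gaps of 5.08 and 3.76. The fourth region, at the end of Cdyl2, had means of 18.5 after tunicamycin and 18.01 after DMSO. In all, 888 genes were nearest to a member within 100 kb, 846 of them to 1 and 40 to 2.

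Niche adhesion genes had 3 members among 55 regions (5.45%, against 4.62%) and 7 regions that ranked lower in every tunicamycin library (12.7%, against 4.55%). Next to Ccr9 these were Itgb2, the beta chain of leukocyte integrins, at 52.7, 60.3 and 48.9 after tunicamycin and 25.4, 36.2 and 30.6 after DMSO, and Itga4, a chain of the integrin VLA-4, with a gap of 4.70. The Itgb2 region lay 1.17 kb from a region that was called in all tunicamycin libraries and in no DMSO library. The interferon list had 3 members in 55 regions (5.45%, against 4.62%), including Irf2 and Ifitm3. One member lay 9.8 kb outside Ifitm3, which encodes an antiviral membrane protein. It stood at 28.2, 56.0 and 53.2 after tunicamycin and 24.7, 25.5 and 4.1 after DMSO. The region near an end of Ifitm3 was not a member, with means of 22.1 after tunicamycin and 26.6 after DMSO. Nor was a region 18.5 kb away, with means of 74.4 after tunicamycin and 80.9 after DMSO. Further members were at Psme4, the gene of a proteasome activator (88.6, 76.7 and 76.8 after tunicamycin, 60.05, 61.5 and 53.03 after DMSO), Gsr, glutathione reductase (61.6, 40.5 and 53.7 after tunicamycin, 29.1, 32.3 and 16.7 after DMSO), and Efnb1, the ephrin B1 gene (79.8, 57.2 and 61.4 after tunicamycin, 35.5, 27.2 and 20.8 after DMSO). Inflammation genes had 3 members in 74 regions (4.05%, against 4.62%), of which Bcl3, an IkB family gene, had 2, with the third at Il1b.

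Lists without a member were ER stress, cell cycle (68 regions), the EMP and PMP22 family (5), ribosomal proteins (46) and erythroid markers (16). The share over all shared regions within 100 kb of a gene was 4.62%, so few members fall in lists this short, and these counts are descriptions. Early response genes had 2 members in 100 regions (2%), at Bach2 and Klf2, apoptosis 1 in 55 (1.82%), at Pmaip1, and sphingolipid metabolism 2 in 50 (4%), at Ormdl3 and Sgms1. Lineage marker lists held 2 members each for myeloid (of 26 regions, 7.69%), megakaryocyte (30, 6.67%), lymphoid (33, 6.06%) and stromal genes (29, 6.90%). The part of such cells in the set was not tested. Of the 24 lists 11 had a share of members above the background, and lists held 55 of the 970 members.

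**Figure D5:**
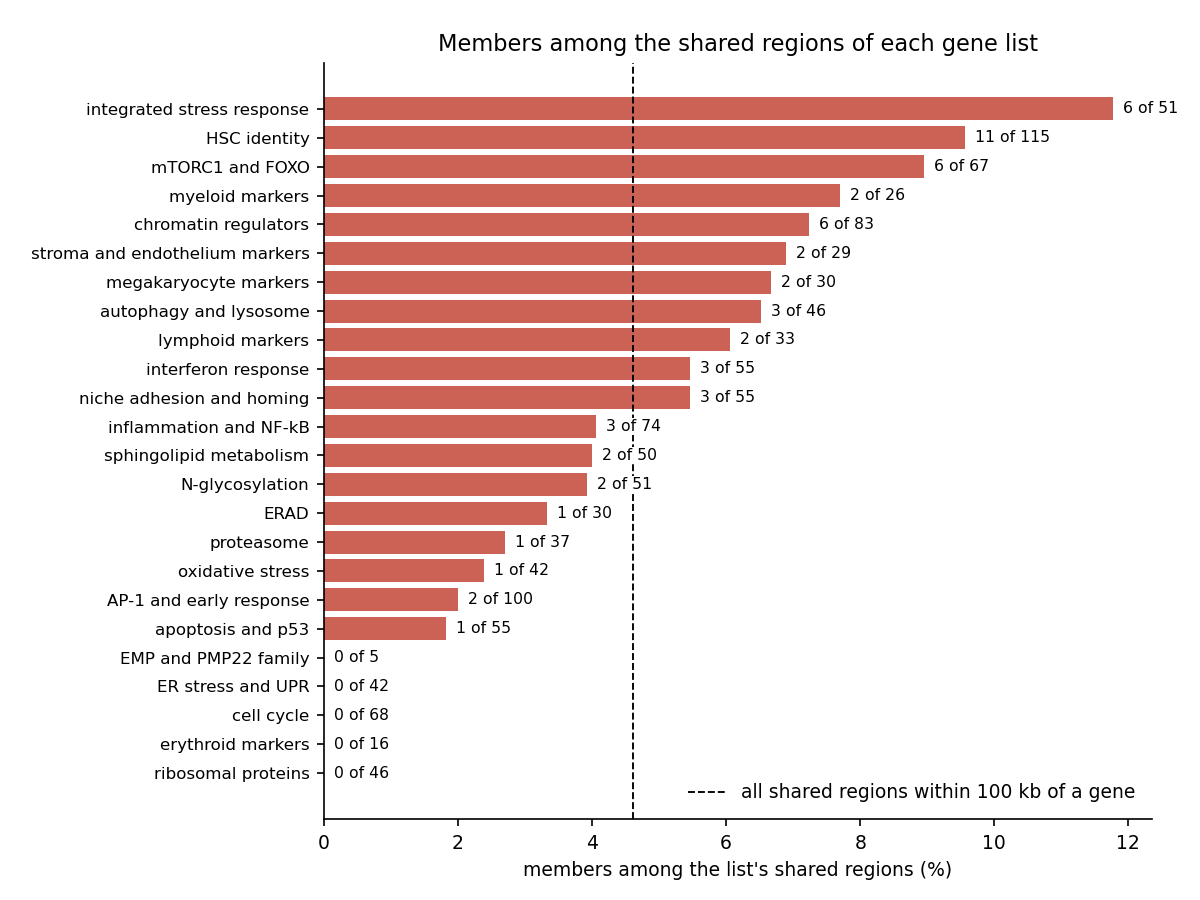
Members as a percent of the shared regions of each gene list (horizontal axis), with the counts beside the bars; the dashed line is the 4.62% of all shared regions within 100 kb of a gene. The integrated stress response (6 of 51) and HSC identity (11 of 115) lists have the longest bars, and 5 lists have no member.

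The position of members differed from that of all shared regions by a few percentage points. Within 1 kb of the start or end of a protein-coding gene lay 390 of them (40.2%), against 43.6% of all shared regions and 39.5% of the lower regions. Ranked by the significance of peaks, the same share of members was 45.9%, above the background. The exact binomial 95% interval of the 40.2% was 37.1 to 43.4. Regions are not replicates, so this interval is a description and no test. Inside a gene and over 1 kb from its ends lay 31.6% of members and 31.5% of shared regions. Outside genes, at 1 to 100 kb, were 24.2% of members and 21.9% of shared regions, and 38 members (3.92%) lay beyond 100 kb, against 2.99%. A RefSeq start site fell in 316 members (32.6%), against 35.4% of shared regions. Start sites were at hand for 17492 of 21887 protein-coding genes and for none on chromosome 18, so both shares may be too low. Median width was 774.5 bp for members and 775 bp for shared regions. Members made up 3.63 to 6.57% of the shared regions of each autosome, with the highest share on chromosome 18, and 5.37% on the X chromosome.

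Classes of regions defined without the ranks, by position or by the width of the merged regions, differed between the groups by less than the spread between libraries. Widths came from the peaks of these same libraries. Tests of 3 libraries against 3 could not give a p below 0.1, so no conclusion is drawn from them. The mean percentile of the 9078 shared regions within 1 kb of a gene end was 59.4, 57.7 and 59.0 in the tunicamycin libraries and 56.3, 59.5 and 61.1 in the DMSO libraries. The groups overlapped, and their means were 58.7 ± 0.90 after tunicamycin and 59.0 ± 2.45 after DMSO (SD, n = 3 each; two-sided exact permutation test, p = 0.8, the smallest possible being 0.1). For the 10379 shared regions of above-median width the means were 57.8 ± 0.75 after tunicamycin and 57.9 ± 2.197 after DMSO (SD, n = 3 each; two-sided exact permutation test, p = 1).

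Neighbours of members were members about as often as the background. The nearest shared region of a member was itself a member in 47 cases (4.85%), against 4.66% for all shared regions. Nearest neighbours of members differed between the groups by a median of 0.098 points, against -0.59 for neighbours of all shared regions. The background changed with distance, and members had their neighbours at a median of 16.7 kb, against 14.7 kb. For neighbours within 10 kb the medians were -0.67 for members and -1.72 for all shared regions, at 10 to 50 kb 0.64 and -0.048, and beyond 50 kb, in the opposite order, 0.38 and 0.70. Within 50 kb of the 567 regions called in all 3 tunicamycin and no DMSO libraries lay 48 members (4.95%), against 6.04% of shared regions and 9.20% of the lower regions.

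RefSeq promoter windows were at hand for 17492 of 21887 protein-coding genes, and 396 windows of 348 genes had their start site in a member. Their median GC content was 61.3%, against 62% in the 9139 windows of all shared regions, and they held a median of 23 CpG dinucleotides, against 22. The motif TGANGCAA, added after the Chac1 window had been read, was in 22 member windows (5.56%), against 2.90% of windows in all shared regions, 1.17% in the lower regions and 3.48% of all windows. Since the motif was read from a member window, its count in members is no independent evidence. The related C/EBP motif TTGCNNAA went the other way, in 18 member windows (4.55%), against 7.56% in all shared regions and 8.45% in the lower regions. Windows with TGANGCAA included Chac1, Nup153, a nuclear pore gene, Pafah1b2 and Fancl, a DNA repair gene. TGATGNAAT, searched for the CHOP and ATF4 element, was in 1 member window (0.25%), against 0.36%, UPRE in 3 (0.76%), against 0.97%, and CRE in 15 (3.79%), against 3.88%. AP-1 was in 16 member windows (4.04%), against 2.65%, and CCAAT in 136 (34.3%), against 40.5% in windows of all shared regions. Windows of divergent genes and alternative start sites overlap, so these counts are not of independent sequences.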

How the data were processed

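ATAC-seq peaks of sorted mouse HSCs were analysed from 1 deposited peak list per library. Tools in the submitters' processing notes are MACS2, Bowtie2 2.2.9, featureCounts, Picard and Trim Galore 0.4.4, with build mm10. Read filtering, the transposase shift and caller settings were not given in the sources used here. The authors deposited for each peak a fold enrichment (a ratio over background) and a −log10 q-value, both the peak's own values, used only to rank peaks within a list. Percentiles give tied regions their mean rank. Each region took the name of its closest gene, at any distance, from a RefSeq table of 21887 protein-coding genes (GRCm38.p6), and counts by list or gene used regions within 100 kb. That table has no strand, so either gene end was used, and exons and introns were not told apart. Planned motif and composition counts needed a genome and were limited to RefSeq promoter windows, with none on chromosome 18. Peak calls had no depth behind them, and intervals on shares are exact binomial.

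Members, the 24 gene lists and the rule for naming regions were chosen with earlier results of these data known. Named were the 12 members with the widest gap, the 6 of highest rank, 3 on each side of the threshold, members at the stress, glycosylation and degradation lists, up to 4 genes of each other list, and genes with 3 members. Regions of other genes and the printed promoters were chosen after their values were seen. Class means were compared by exact permutation over libraries. Merging and ranking were tested on simulated data. Versions were pandas 2.3.3, NumPy 2.4.6 and SciPy 1.17.1 under Python 3.11.15, and matplotlib 3.10.9 for figures. A few regions that the naming rule covers are not reported here.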

Additional observations from a re-analysis of the deposited data

How the results depend on the processing

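The count of 970 stayed between 753 and 1140 when peaks were ranked by −log10 q (1140) or by mean fold (990), and when peaks, regions, joining or ranks were restricted as planned (753 to 1006). Of the 970 members 613 remained under −log10 q, 799 when regions were ranked within 10 classes of width and 899 under mean fold. Of the 70 named members 55 remained under −log10 q; Slc7a1, Eif2ak1, Uggt2, Cdk8 and Prpf8 were among the 15 that did not. Under mean fold 8 of 70 left, with Psme4, Ica1l and Csf1r among them. Chac1 kept a gap of 16.4 under −log10 q. Differences turned under −log10 q at Prpf8 (-0.0593) and at Cldn34d, just outside the threshold (-0.0144). With each library left out in turn the rule is looser, and it chose 1789 to 2839 regions, which kept 957 to 969 of the members.

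The share of members within 1 kb of a gene end moved to 45.9% under −log10 q and 45.6% in lists of equal length, and ran from 36.5 to 45.1% with a library left out. Lists of equal length had 17039 shared regions, and runs with a library left out had 20914 to 27680. The 43.6% of all shared regions is thus not their background, and their own is not given here. The tunicamycin minus DMSO difference of class means turned under −log10 q for gene ends (0.488) and for wider regions (0.612). With a library left out it ran from -1.64 to 0.767 for gene ends, above 0 without tunicamycin 2 (0.210) or DMSO 3 (0.767), and from -1.30 to 0.752 for wider regions, above 0 without tunicamycin 2 (0.370), DMSO 2 (0.405) or DMSO 3 (0.752). The cause was not tested. Within 10 kb in place of 100 kb, HSC identity held 7 members in 93 regions (7.53%) and autophagy 1 in 43 (2.33%). Chromatin regulators held 2 in 72 (2.78%) and lymphoid markers 1 in 22 (4.55%). The share over all shared regions within 10 kb of a gene was 4.45%. Autophagy and chromatin regulators, above the background within 100 kb, thus lay below it within 10 kb.

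Libraries of the same number share only a number: their deviations from the group means correlated at -0.0962, -0.0213 and 0.0245. As a replicate block, with the percentile higher in each same-numbered pair, the rule chose 2414 regions (11.6%), since it asks less than the full ranking, and the paired sign-flip test for gene ends gave -0.299 (exact p = 1). Unknown depth, DMSO lists of very unequal length and 3 libraries a group limit all values here.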
